A study of Mus musculus with 18 samples.

Results

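Tim-4high macrophages from the peritoneal cavity of tumor-bearing mice were compared between animals given an antibody against Tim-4 and animals given an isotype control antibody. The comparison took the 3 anti-Tim-4 and the 3 isotype libraries of the Tim-4high sort, 6 of the 18 bulk RNA libraries in the series, chosen by their labels and by no measured value. All tumor-bearing mice had MC38-LG tumor in the peritoneal cavity, MC38 being a colon carcinoma line of mouse origin. Mice of the anti-Tim-4 group received the antibody on day 7, and their macrophages were taken on day 10, while for the isotype antibody no day is given in the labels. Macrophages were sorted as Tim-4high or Tim-4low and stored in trizol, and RNA was extracted by a service laboratory. Besides the 6 libraries, 3 anti-Tim-4 and 3 isotype libraries of Tim-4low macrophages and 3 libraries of Tim-4high macrophages from untreated mice without a tumor were used for side-by-side values. The labels give no strain, age or sex, and nothing says that the libraries of a group came from separate mice, so the p-values rest on the spread between these libraries, which may be technical alone.

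Tim-4, encoded by Timd4, is a cell surface receptor that binds phosphatidylserine on dying cells and tethers them for uptake. In the peritoneal cavity it marks long-lived resident macrophages, whose identity is set by the transcription factor GATA6 and which also carry high F4/80 (Adgre1), ICAM-2 and coagulation factor V. Monocyte-derived cells that enter the cavity start with little Tim-4, more MHC class II and CCR2, and can acquire resident features with time. Since the sort used Tim-4 staining after an antibody against Tim-4 had been given, a shift of cells across the gate and a change of expression within cells cannot be told apart. As in any bulk sample, fewer cells of a type and less RNA per cell cannot be told apart either.

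The 6 libraries held 26886142 to 29832626 estimated gene counts, so depth differed little between groups. Timd4 (ENSMUSG00000055546, chromosome 11, 46810800 to 46844332, plus strand, build mm10), the gene behind the sort, had 210.4, 166 and 162 CPM (gene counts divided by the effective library size) in anti-Tim-4 libraries 1 to 3, against 305, 282 and 270.3 CPM in isotype libraries 1 to 3. Every anti-Tim-4 value lay below every isotype value, and Timd4 was lower with anti-Tim-4 by a log2 fold change of -0.68 ± 0.11 (standard error, edgeR quasi-likelihood test, adjusted p = 0.00750). In the fit of all 18 libraries the adjusted p was 0.626. Tim-4low libraries had 28.2, 22.6 and 11.6 CPM of Timd4 with anti-Tim-4 and 14.2, 10.7 and 74.4 CPM with isotype, below all Tim-4high libraries, so the sort labels and Timd4 went together. The 10 macrophage defining markers, among them Csf1r, Itgam, Cd68, Lyz2 and C1qa, were detected in every library and summed to 23010, 22360 and 23100 CPM with anti-Tim-4, against 24710, 23490 and 24510 CPM with isotype.

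Isotype library 3 stood apart in markers of several types of other cells. The 20 T and NK cell markers summed to 22.2, 19.9 and 16.8 CPM with anti-Tim-4, against 36.8, 25.99 and 207 CPM with isotype. Neutrophil markers summed to 28.6, 36.9 and 27.8 CPM with anti-Tim-4, against 59.7, 57.95 and 248 CPM with isotype. Dendritic cell markers summed to 43.1, 34.1 and 34.1 CPM with anti-Tim-4, against 47.2, 39.4 and 137 CPM with isotype. The third isotype value was the highest in all 3 lists, and B cell (13.1, 10.1 and 14.8 CPM with anti-Tim-4, 14.6, 11.2 and 74.2 CPM with isotype) and mesothelial and fibroblast markers (6.93, 4.38 and 5.77 CPM with anti-Tim-4, 10.1, 16.3 and 45.8 CPM with isotype) did the same. The lists for these cells hold 20, 15, 12, 15 and 14 genes for T and NK, B, neutrophil, dendritic and mesothelial or fibroblast cells, of which 0, 3, 5, 0 and 4 genes were under 1 CPM in all 6 libraries. No gene of these lists in the table was at 0 in all 6. Epithelial and tumor-line markers, mostly Cdh1, summed to 19.9, 18.4 and 18.5 CPM with anti-Tim-4, against 9.09, 11.9 and 16.2 CPM with isotype. Red cell and platelet markers, mostly Pf4, summed to 74.4, 103 and 57.4 CPM with anti-Tim-4, against 173.5, 127 and 125.5 CPM with isotype. Pf4 alone had 64.1, 94.6 and 48.3 CPM with anti-Tim-4, against 138, 109.7 and 112.2 CPM with isotype. In Tim-4high libraries without a tumor Pf4 had 494, 419 and 514 CPM. Mast cell and basophil markers, mostly Hdc, summed to 64.6, 45.1 and 32.9 CPM with anti-Tim-4, against 141, 125 and 156 CPM with isotype. Hdc alone had 63.5, 44.1 and 31.9 CPM with anti-Tim-4, against 139.5, 123.7 and 143.6 CPM with isotype. Monocyte markers summed to 11810, 9344 and 4131 CPM with anti-Tim-4, against 7981, 8003 and 7869 CPM with isotype, with the highest and the lowest value in anti-Tim-4 libraries. Chil3, a chitinase-like protein gene, made up most of that sum, with 10830, 8151 and 2961 CPM with anti-Tim-4, against 7017, 7137 and 6807 CPM with isotype. The other 14 monocyte genes summed to 982, 1193 and 1170 CPM with anti-Tim-4, against 964, 865 and 1062 CPM with isotype, and of all 15 genes 1 rose and 2 fell, or 5 rose and 1 fell without isotype library 3 (6.59% of all genes rose and 7.19% fell there). The part of these cells in the results below was not tested, and values without isotype library 3 are given where they change a call or a size.

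**Figure D1:**
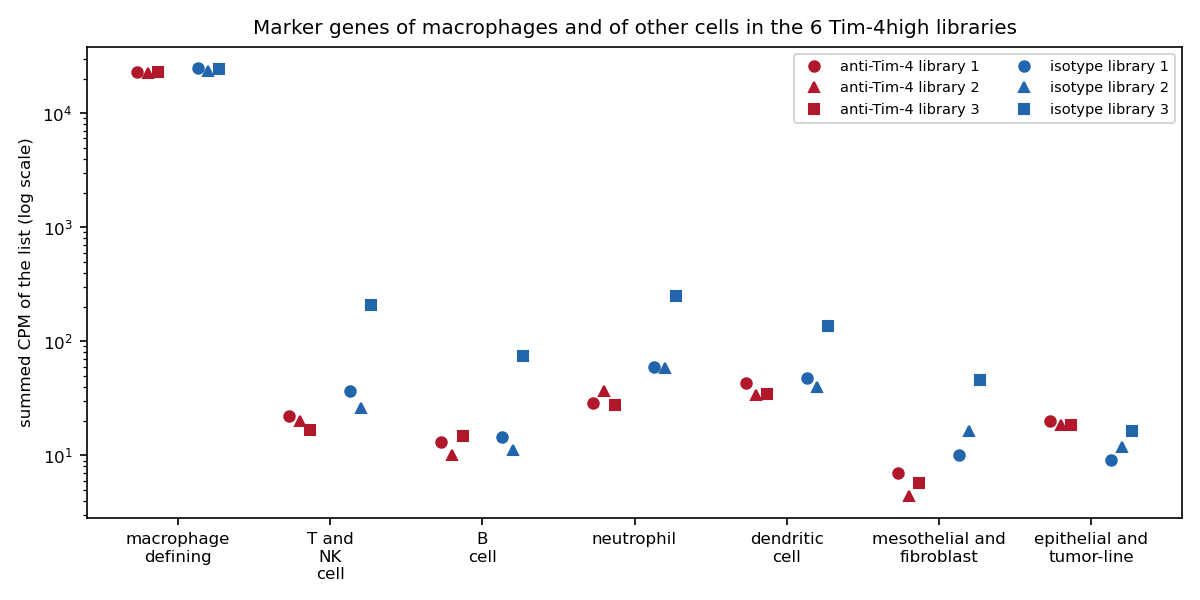
Summed CPM of marker lists in the 6 Tim-4high libraries (vertical axis, log scale), anti-Tim-4 libraries left of isotype libraries within each list, with 1 point per library. Isotype library 3 lies above the other libraries for T and NK, B, neutrophil, dendritic and mesothelial and fibroblast markers, while the macrophage markers span 22360 to 24710 CPM.

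Across the 14745 genes tested, of 23511 in the table, 1436 (9.74%) rose and 1554 (10.5%) fell with anti-Tim-4 at an adjusted p under 0.05, 20.3% in all. Of these, 169 rose and 406 fell by more than 2-fold. Every anti-Tim-4 value was above every isotype value for 22.3% of the genes tested and below every isotype value for 20.0%. The median log2 fold change over all genes tested was -0.0026, and 5264 genes had an unadjusted p under 0.05. In the authors' deposited table of the same 6 libraries, 1518 genes were higher and 1645 lower at an FDR under 0.05, and 2748 genes called with the same sign in both made up 86.88% of the authors' calls and 91.91% of the edgeR calls. Leaving out anti-Tim-4 library 2, anti-Tim-4 library 3 or isotype library 1 left 1024, 1169 and 1043 calls, and the fit of all 18 libraries made 1324. In what follows, a signed value in parentheses beside a gene gives the log2 fold change, anti-Tim-4 over isotype. Counts of list members that rose or fell stand beside these shares of 9.74% and 10.5%, and a count near them is no result about a list. Where leaving out 1 library ended a gene's call, the libraries that did so are in parentheses after it.

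The genes with the largest increases included surface receptors and enzymes of macrophages. Pdcd1lg2 (ENSMUSG00000016498, chromosome 19, 29410919 to 29471161, plus strand), which encodes the PD-1 ligand PD-L2, had 21.9, 16.2 and 24.6 CPM with anti-Tim-4, against 3.48, 6.28 and 4.67 CPM with isotype, a log2 fold change of 2.11 ± 0.22 (adjusted p = 0.00491). Every anti-Tim-4 value was more than 2-fold above every isotype value. Gpr141, an orphan G protein-coupled receptor gene, had 22.5, 20.5 and 30.6 CPM with anti-Tim-4, against 3.26, 4.34 and 8.98 CPM with isotype, a log2 fold change of 2.15 ± 0.33 (adjusted p = 0.00728). Mrc1 (ENSMUSG00000026712, chromosome 2, 14229392 to 14332057, plus strand), which encodes the mannose receptor CD206, had 448, 527 and 584 CPM with anti-Tim-4, against 119, 274 and 95.3 CPM with isotype, a log2 fold change of 1.67 ± 0.35 (adjusted p = 0.0174). Its isotype library 2 was more than 2-fold above the other isotype libraries but still below every anti-Tim-4 library. Clec4a1, a C-type lectin receptor gene, had 55.2, 55.4 and 66.3 CPM with anti-Tim-4, against 18.4, 22.97 and 19.9 CPM with isotype, a log2 fold change of 1.52 ± 0.10 (adjusted p = 0.00491). Also among the 15 largest increases were Mmp14, a membrane-bound matrix protease (1.70), Aif1, the actin-binding protein IBA1 (1.64), Flt1, a VEGF receptor (1.62), Ggta1, which makes alpha-galactose epitopes (1.73), Hal, the histidine-degrading enzyme (1.69), Ltb4r1, the leukotriene B4 receptor (1.51), Arhgef37 (2.06), B3gnt7 (1.92), Cbr2 (1.58) and Rcn3 (1.51). Leaving out 1 library ended the call of Mrc1 and Cbr2 (anti-Tim-4 2 or 3, or isotype 1) and Rcn3 (anti-Tim-4 2), with adjusted p-values up to 0.0765. The fit of all 18 libraries ended the call of Flt1 (adjusted p up to 0.232), and robust estimation that of Mrc1 and Cbr2 (adjusted p up to 0.0617). Without isotype library 2 the log2 fold change of Mrc1 was 2.27.

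Several of these genes were at their higher level in the Tim-4low sort of isotype mice as well. Mrc1 had 486, 505 and 293 CPM, Clec4a1 101, 98.3 and 92.5 CPM, Pdcd1lg2 17.8, 19.2 and 11.1 CPM and Flt1 112, 125 and 102 CPM in isotype Tim-4low libraries. In Tim-4high cells without a tumor, Pdcd1lg2 had 0.833, 0.155 and 0.662 CPM and Clec4a1 26.2, 50.7 and 58.5 CPM. The level in anti-Tim-4 Tim-4high cells thus lay within or near the range of isotype Tim-4low cells for Mrc1 and Pdcd1lg2 and below it for Clec4a1 and Flt1. CPM of the 2 sorts were scaled in different sets of libraries, so this comparison is approximate.

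The largest decreases included chemokines, cytokines and genes of the immediate-early response. Cxcl1 (ENSMUSG00000029380, chromosome 5, 90891241 to 90893115, plus strand), which encodes a neutrophil-attracting chemokine, had 5.21, 4.08 and 2.08 CPM with anti-Tim-4, against 43.7, 29.1 and 11.5 CPM with isotype, a log2 fold change of -2.91 ± 0.50 (adjusted p = 0.00988). Nr4a1 (ENSMUSG00000023034, chromosome 15, 101254269 to 101274795, plus strand), which encodes the nuclear receptor NUR77, had 24.7, 17.3 and 12.7 CPM with anti-Tim-4, against 171, 99.8 and 88.8 CPM with isotype, a log2 fold change of -2.73 ± 0.31 (adjusted p = 0.00491). Fosb (ENSMUSG00000003545, chromosome 7, 19302696 to 19310051, minus strand), an AP-1 subunit gene, had 18.8, 16.7 and 15.8 CPM with anti-Tim-4, against 167, 94.4 and 65.1 CPM with isotype, a log2 fold change of -2.69 ± 0.32 (adjusted p = 0.00491). The groups did not overlap for any of the 3 genes, and each of their anti-Tim-4 values was below the lowest isotype value by more than 2-fold. Tcim, a small regulator gene (-2.27), Lif, an interleukin-6 family cytokine (-2.40), and Ptgs2, the inducible cyclooxygenase (-2.23), fell too.

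Of the 15 largest decreases, 6 rested in size on isotype library 3, the interleukin-1 gene Il1b, given below, and 5 shown here. Ccr7, a receptor of migrating dendritic cells and T cells, had 2.42, 2.26 and 1.05 CPM with anti-Tim-4, against 4.40, 4.20 and 31.1 CPM with isotype, a log2 fold change of -2.80 ± 0.83 (adjusted p = 0.0481), or -1.18 without isotype library 3. The same log2 fold changes were -2.67 with all libraries and -1.32 without isotype library 3 for the neutrophil chemokine receptor Cxcr2, -2.49 and -1.18 for S100a9, -2.22 and -1.14 for the gelatinase Mmp9, and -2.65 and -1.18 for the actin bundler Fscn1, a dendritic cell gene. All 5 remained called without that library, with adjusted p-values up to 0.0416. Cxcr2 and S100a9 are on the neutrophil list and Ccr7 and Fscn1 on the dendritic cell list, whose sums were highest in isotype library 3. Fscn1 was not low in Tim-4high libraries without a tumor, where it had 123, 88.3 and 82.8 CPM. When 1 library was left out, the call was lost for Cxcr2, S100a9 and Mmp9 (anti-Tim-4 1, 2 or 3) and Ccr7 and Fscn1 (anti-Tim-4 1, 2 or 3, or isotype 1), with adjusted p-values up to 0.156. A fit of all 18 libraries ended the call of Lif, Ccr7, S100a9 and Fscn1 (adjusted p up to 0.103), and robust estimation that of Ccr7, Cxcr2, S100a9, Mmp9 and Fscn1 (adjusted p up to 0.120).

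**Figure D2:**
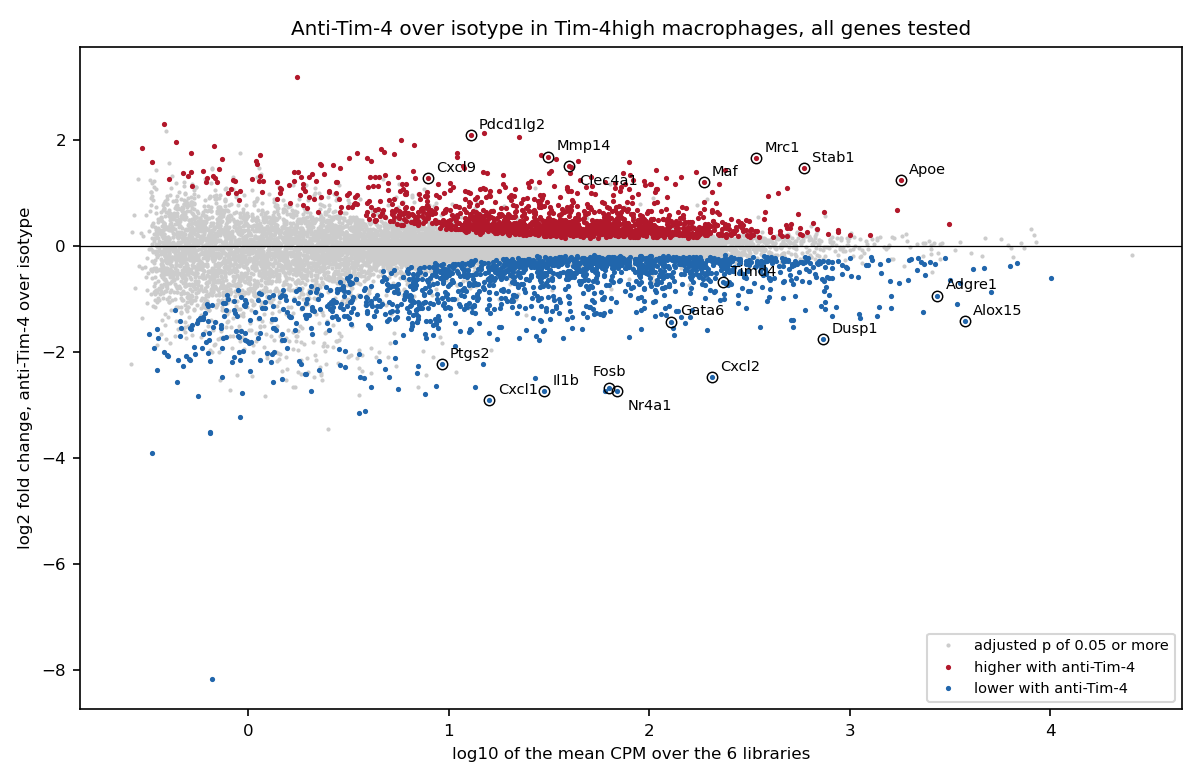
Mean level over the 6 libraries (horizontal axis, log10 CPM) against the anti-Tim-4 to isotype log2 fold change (vertical axis) for the 14745 genes tested in Tim-4high macrophages, with 1 point per gene and called genes in color. Called genes lie on both sides of 0, 1436 above and 1554 below, and Fosb, Nr4a1 and Cxcl1 are at the lower edge among the named genes.

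Genes of resident cavity macrophages fell. Of 24 tested members of that list, of 25 listed, 18 fell and 1 rose, with a median log2 fold change of -1.002, against 10.5% lower and 9.74% higher over all genes. Gata6, the master regulator of these cells, had 94.9, 74.5 and 42.1 CPM with anti-Tim-4, against 202, 162 and 199.6 CPM with isotype, a log2 fold change of -1.42 ± 0.25 (adjusted p = 0.0106). Every isotype value was above the highest anti-Tim-4 value, and anti-Tim-4 library 3 was the lowest. F5, coagulation factor V, had 865, 606 and 424 CPM with anti-Tim-4, against 1758, 1476 and 1598 CPM with isotype, a log2 fold change of -1.36 ± 0.22 (adjusted p = 0.00876). Alox15, the lipoxygenase that resident cavity macrophages use to make oxidized lipids, had 2578, 2481 and 1159 CPM with anti-Tim-4, against 6350, 4427 and 5600 CPM with isotype, a log2 fold change of -1.41 ± 0.28 (adjusted p = 0.0150). Adgre1, which encodes F4/80, had 2440, 2033 and 1218 CPM with anti-Tim-4, against 3757, 3393 and 3611 CPM with isotype, a log2 fold change of -0.93 ± 0.22 (adjusted p = 0.0229). In all 3 genes the groups did not overlap and anti-Tim-4 library 3 was again the lowest.

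Among the other members that fell were Garnl3 (-1.44), Tgfb2, a TGF-beta cytokine (-1.38), Serpinb2, an inhibitor of plasminogen activators (-1.31), Prg4, the lubricin gene (-1.24), Selp, P-selectin (-1.21), Marco, a scavenger receptor (-1.16), Cd5l, a secreted inhibitor of apoptosis of macrophages (-1.15), Thbs1, thrombospondin-1 (-1.08), Icam2, an adhesion molecule (-1.07), Rarb, a retinoic acid receptor (-0.94), Laptm5, a lysosomal membrane protein (-0.64) and Itgam, the CD11b integrin (-0.31). Folr2, a folate receptor gene of tissue-resident macrophages that appeared on the same list, rose to 138, 187 and 196 CPM with anti-Tim-4, against 53.01, 111 and 46.2 CPM with isotype, a log2 fold change of 1.30 ± 0.31 (adjusted p = 0.0248). Lyve1, a hyaluronan receptor often carried with Folr2, had 148, 266 and 248 CPM with anti-Tim-4, against 81.9, 233 and 65.6 CPM with isotype, with groups that overlapped and an adjusted p of 0.249. Cd163 (0.54, adjusted p = 0.404), Vsig4 (-0.73, adjusted p = 0.0777), Cxcl13 (-0.82, adjusted p = 0.0515) and Fn1 (-0.16, adjusted p = 0.145) were not called. Removal of 1 library ended the call of Adgre1, Tgfb2, Serpinb2 and Prg4 (anti-Tim-4 2, or isotype 1), Selp (anti-Tim-4 2), Folr2 (anti-Tim-4 2 or 3, or isotype 1), Itgam (anti-Tim-4 2 or 3, or isotype 1 or 3) and Alox15 (isotype 1), with adjusted p-values up to 0.102. Fitting all 18 libraries together ended the call of Gata6, Alox15, Adgre1, Garnl3, Tgfb2, Serpinb2, Prg4, Selp, Marco, Cd5l, Itgam and Folr2 (adjusted p up to 0.154), and robust estimation that of Adgre1, Tgfb2, Serpinb2, Prg4 and Folr2 (adjusted p up to 0.0717). In the fit of all 18 libraries 7 members fell, where 3.67% of all genes fell and 4.30% rose, and leaving out 1 library left 12 to 19 that fell.

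In Tim-4low cells the same genes were at values that went the other way in libraries 1 and 2. Gata6 had 108, 80.6 and 26.5 CPM in anti-Tim-4 Tim-4low libraries, against 41.7, 25.3 and 68.8 CPM in isotype Tim-4low libraries, and F5 had 1221, 687 and 389 CPM with anti-Tim-4, against 426, 265 and 539 CPM with isotype. Alox15 had 3430, 3284 and 817 CPM with anti-Tim-4 and 1286, 648 and 1868 CPM with isotype in Tim-4low cells. Anti-Tim-4 Tim-4low libraries 1 and 2 were above every isotype Tim-4low library for the 3 genes, and anti-Tim-4 Tim-4low library 3 was within the isotype range for all 3. The 3 genes were not called in Tim-4low cells, with adjusted p-values of 0.486, 0.271 and 0.349.

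**Figure D3:**
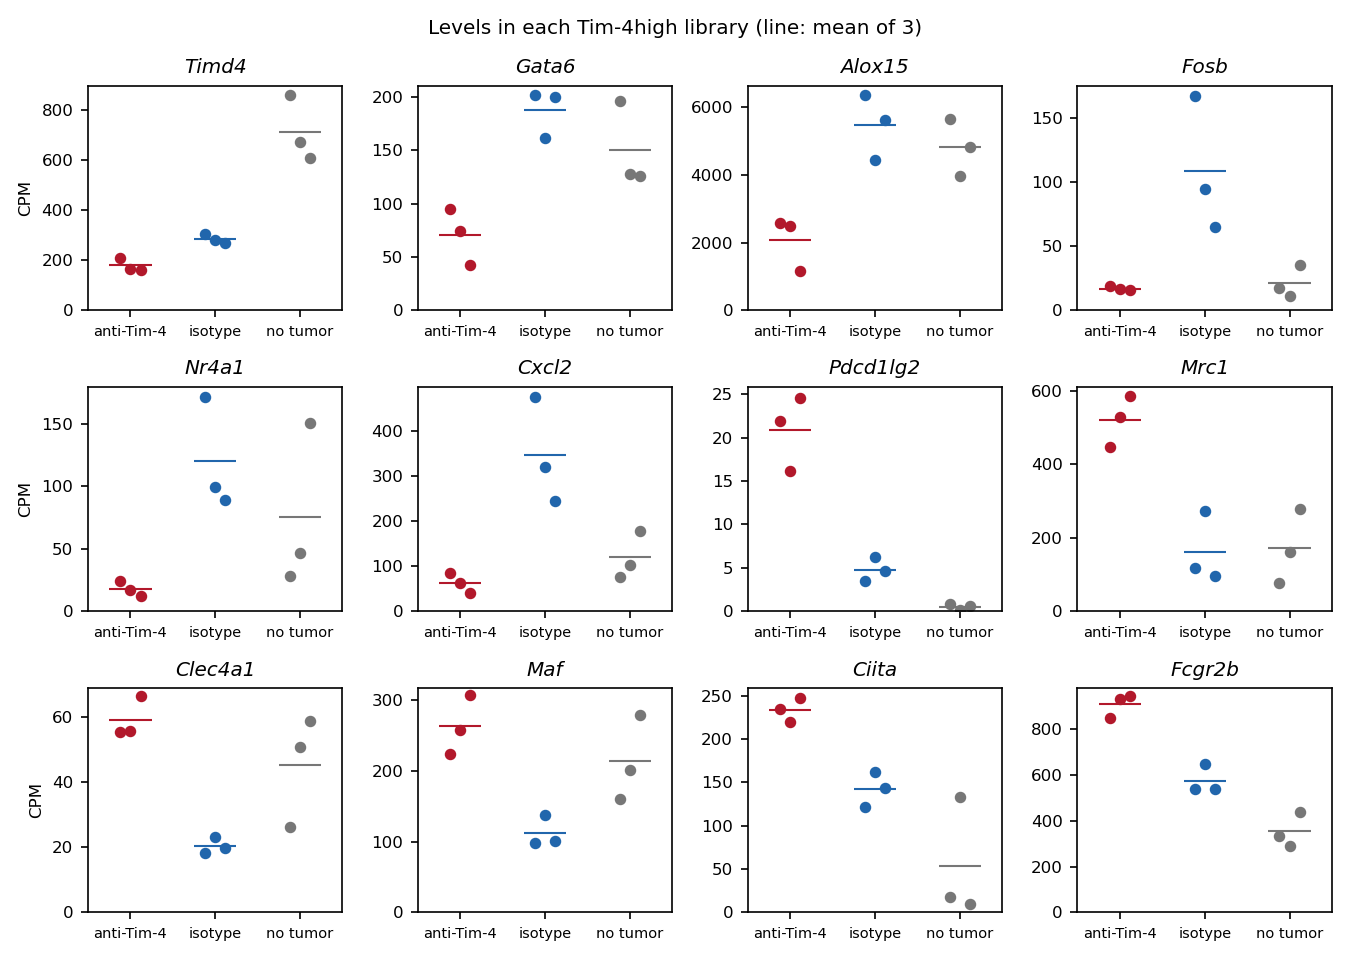
CPM per library (vertical axes, each panel with its own scale) of 12 named genes in Tim-4high macrophages with anti-Tim-4, with isotype and without a tumor, with 1 point per library and a bar at the group mean. The 3 anti-Tim-4 points of Gata6 lie between 42.1 and 94.9 CPM, under the isotype points, and those of Pdcd1lg2 between 16.2 and 24.6 CPM, above them.

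Of 25 tested transcription factors of the macrophage lineage, 7 fell and 4 rose, with a median log2 fold change of 0.01. Maf, which encodes c-MAF, had 224, 257 and 306 CPM with anti-Tim-4, against 97.8, 138 and 101 CPM with isotype, a log2 fold change of 1.22 ± 0.15 (adjusted p = 0.00552). Irf8, needed for monocyte and dendritic cell development, had 242, 261 and 321 CPM with anti-Tim-4, against 124, 177 and 163 CPM with isotype, a log2 fold change of 0.82 ± 0.14 (adjusted p = 0.0103). Nr1h3, the liver X receptor LXR-alpha (0.70), and Cebpa (0.50) also rose. Id1, an inhibitor of helix-loop-helix factors, had 12.7, 10.3 and 8.27 CPM with anti-Tim-4, against 37.4, 29.1 and 36.4 CPM with isotype, a log2 fold change of -1.73 ± 0.16 (adjusted p = 0.00491). Bhlhe40, needed for proliferation of cavity macrophages, had 542, 469 and 446 CPM with anti-Tim-4, against 801, 766 and 734 CPM with isotype, a log2 fold change of -0.67 ± 0.08 (adjusted p = 0.00503). The groups did not overlap in any of these genes given by library. Klf4 (-0.84), Klf2 (-0.65) and Cebpb (-0.36) fell, while Spi1, the gene of PU.1, had a log2 fold change of -0.16 and an adjusted p of 0.0834. Among colony-stimulating factor genes, the growth factor Csf1 had 16.9, 12.1 and 9.74 CPM with anti-Tim-4, against 23.3, 21.5 and 33.6 CPM with isotype, a log2 fold change of -1.03 ± 0.22 (adjusted p = 0.0189). Its receptor Csf1r had 1358, 1308 and 1431 CPM with anti-Tim-4, against 1170, 1171 and 1152 CPM with isotype, a log2 fold change of 0.22 ± 0.06 (adjusted p = 0.0363). In all, 1 of 6 tested members of that list rose and 5 fell, the others being Csf3r (-1.28), Csf2rb (-0.47), Csf2rb2 (-0.30) and Csf2ra (-0.18), where Csf2rb and Csf2rb2 are near-identical copies whose reads can be split. Calls lost on leaving out 1 library were those of Cebpb and Csf3r (anti-Tim-4 1, 2 or 3, or isotype 1), Csf1r and Csf2ra (each of the 6), Klf4 (anti-Tim-4 2), Csf1 (anti-Tim-4 2 or 3), Csf2rb2 (anti-Tim-4 2 or 3, or isotype 1), Nr1h3 (anti-Tim-4 2 or 3, or isotype 1 or 3) and Cebpa (anti-Tim-4 2, or isotype 1), with adjusted p-values up to 0.125. With all 18 libraries, the fit ended the call of Nr1h3, Klf4, Cebpb, Csf1, Csf1r and Csf2ra (adjusted p up to 0.485), and a fit with no filter on low counts that of Csf2ra (adjusted p up to 0.0740), and robust estimation that of Csf3r (adjusted p up to 0.0986).

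Of 20 genes of small or recruited cavity macrophages, 3 rose and 0 fell, with a median of 0.03. The 3 were Fcgr1 (0.64), Retnla (0.84) and Vcan (0.58). Ccr2, the chemokine receptor of classical monocytes, had 144, 113 and 153 CPM with anti-Tim-4, against 42.97, 53.5 and 119 CPM with isotype, with an adjusted p of 0.0892. Ly6c2 had 36.05, 30.3 and 44.1 CPM with anti-Tim-4, against 10.6, 11.4 and 29.1 CPM with isotype, with an adjusted p of 0.0605. For both genes isotype library 3 was the isotype library nearest to the anti-Tim-4 values, and without it 7 members rose, where 6.59% of all genes rose and 7.19% fell, Ccr2 with a log2 fold change of 1.49 (adjusted p = 0.00566) and Ly6c2 with 1.73 (adjusted p = 0.00449). Leaving out 1 library ended the call of Retnla (anti-Tim-4 1, 2 or 3, or isotype 1) and Vcan (anti-Tim-4 2, or isotype 1), with adjusted p-values up to 0.0859. The fit of all 18 libraries ended the call of Retnla, Vcan and Fcgr1 (adjusted p up to 0.304), and robust estimation that of Retnla (adjusted p up to 0.0676).

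Immediate-early genes, which cells switch on within minutes of a stimulus, mostly fell. Of 25 tested, 23 fell and 0 rose, with a median log2 fold change of -1.18. The promoters of Dusp1 and Btg2 are shown because they carry a full CRE, the cyclic AMP response element TGACGTCA (in capitals), in the 250 bases before the start given by RefSeq (GRCm38.p6, 5′ to 3′ on the strand of the gene). The Dusp1 window is chr17:26508473-26508722 on the minus strand and the Btg2 window chr1:134079156-134079405 on the minus strand.
Dusp1: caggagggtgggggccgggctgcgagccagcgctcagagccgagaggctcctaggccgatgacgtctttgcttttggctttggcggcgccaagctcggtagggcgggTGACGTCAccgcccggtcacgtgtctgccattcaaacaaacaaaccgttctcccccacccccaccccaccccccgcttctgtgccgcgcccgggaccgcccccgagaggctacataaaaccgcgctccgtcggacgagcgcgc
Btg2: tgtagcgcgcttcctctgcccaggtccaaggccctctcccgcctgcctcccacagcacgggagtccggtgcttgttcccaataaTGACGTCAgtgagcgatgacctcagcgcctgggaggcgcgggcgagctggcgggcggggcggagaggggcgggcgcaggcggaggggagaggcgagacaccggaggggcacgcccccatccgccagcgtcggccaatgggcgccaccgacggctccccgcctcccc
Such a CRE, searched on both strands, was found in 3 of 18 immediate-early promoters (16.7%). It was found in 1.62% of all 27025 promoters in the table and in 2.72% of the 9906 matched promoters of genes tested. In the Dusp1 and Btg2 promoters it overlapped no other motif searched, while the shares count matches with or without such overlap. The AP-1 motif TGANTCA was found in 0 of the 18, in 6.87% of all promoters and in 4.4% of those of genes tested. Of the other motifs searched, the hypoxia motif ACGTG was found in 9 of the 18, in 16.6% of all promoters and in 21.8% of those of genes tested, the interferon response and NF-kB motifs in 1 each and the heat shock motif in 0. A match describes letters and shows no binding.

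Dusp1, a phosphatase that switches off MAP kinases, had 456, 338 and 229 CPM with anti-Tim-4, against 1283, 949 and 1179 CPM with isotype, a log2 fold change of -1.75 ± 0.23 (adjusted p = 0.00584). Btg2, an antiproliferative mRNA decay factor, had 135, 91.8 and 65.8 CPM with anti-Tim-4, against 314, 241 and 319 CPM with isotype, a log2 fold change of -1.59 ± 0.24 (adjusted p = 0.00700). In both genes every isotype value was well above the highest anti-Tim-4 value. Egr1, a zinc finger factor, had 23.7, 14.2 and 9.81 CPM with anti-Tim-4, against 120.4, 85.6 and 108 CPM with isotype, a log2 fold change of -2.73 ± 0.28 (adjusted p = 0.00491). Egr3 (-2.73), Dusp2 (-3.14), Nr4a3 (-2.34), Csrnp1 (-1.57), Dusp5 (-1.56), Ier2 (-1.20), Zfp36, which destabilizes cytokine mRNAs (-1.18), Ppp1r15a (-1.01), Egr2 (-0.76), Klf6 (-0.48) and Myc (-0.45) fell too. Without isotype library 3 the log2 fold change was -1.42 for Dusp2, -1.17 for Nr4a3 (adjusted p = 0.0550) and -0.90 for Dusp5. Nr4a2 (-0.73, adjusted p = 0.0547) and Phlda1 (0.37, adjusted p = 0.328) were the 2 members not called. Without a tumor, Tim-4high libraries had 30.2, 44.1 and 138 CPM of Egr1 and 28.1, 46.4 and 151 CPM of Nr4a1, with library 3 the highest, so these genes also varied among untreated libraries. When 1 library was left out, the call was lost for Dusp2 (anti-Tim-4 1, 2 or 3), Dusp5 (anti-Tim-4 1, 2 or 3, or isotype 1), Nr4a3 (each but isotype 2) and Egr2 (anti-Tim-4 2, or isotype 1), with adjusted p-values up to 0.140. A fit of all 18 libraries ended the call of Nr4a3, Dusp5, Egr2, Klf6 and Myc (adjusted p up to 0.466), and robust estimation that of Dusp2, Nr4a3 and Dusp5 (adjusted p up to 0.104). In the fit of all 18 libraries 14 members fell, where 3.67% of all genes fell.

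Of 13 tested AP-1 family genes, 6 fell and 1 rose, with a median of -0.23. Besides Fosb, those that fell were Fos (-1.52), Junb (-0.77), Jund (-0.72), Jun (-0.60) and Fosl2 (-0.23). Batf3, a factor that pairs with JUN proteins in dendritic cells and some macrophages, had 5.55, 4.89 and 6.86 CPM with anti-Tim-4, against 1.98, 1.94 and 3.01 CPM with isotype, a log2 fold change of 1.31 ± 0.22 (adjusted p = 0.00923), with no overlap. Atf3 had a log2 fold change of -0.37 and an adjusted p of 0.0779. Of 15 heat shock genes 4 rose and 0 fell. The inducible Hsp70 genes Hspa1a (126, 104 and 167 CPM with anti-Tim-4, against 57.9, 70.4 and 47.6 CPM with isotype) and Hspa1b (129.8, 99.8 and 168 CPM with anti-Tim-4, against 51.7, 67.8 and 48.02 CPM with isotype) rose by 1.16 ± 0.19 and 1.24 ± 0.20 on the log2 scale (adjusted p = 0.00860 and 0.00804). They are near-identical copies, so the split of reads between them is uncertain. The co-chaperone Dnajb1 (0.51) and Hspa4 (0.24) were the other 2. Removal of 1 library ended the call of Hspa4 (each but isotype 2), Fosl2 (anti-Tim-4 2, or isotype 1) and Dnajb1 (anti-Tim-4 2, or isotype 1 or 3), with adjusted p-values up to 0.113. Fitting all 18 libraries together ended the call of Jun, Fosl2, Hspa1a and Hspa1b (adjusted p up to 0.367).

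The neutrophil-attracting chemokines Cxcl1, Cxcl2 and Cxcl3 fell together, while the interferon-induced chemokines Cxcl9 and Cxcl10 rose. Among 10 tested CXC chemokines 4 fell and 3 rose, with a median of -0.76. The Cxcl1 and Cxcl2 promoters are shown because each has 2 NF-kB motifs GGG, any 2 bases, TTTCC (in capitals, on either strand, with no overlap). Their windows are chr5:90890995-90891244 and chr5:90903649-90903898, both on the plus strand (RefSeq, GRCm38.p6, 5′ to 3′).
Cxcl1: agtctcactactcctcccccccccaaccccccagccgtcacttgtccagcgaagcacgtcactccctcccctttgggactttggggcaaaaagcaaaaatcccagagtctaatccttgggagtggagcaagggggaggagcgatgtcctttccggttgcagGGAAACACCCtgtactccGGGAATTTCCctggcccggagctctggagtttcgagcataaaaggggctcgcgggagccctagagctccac
Cxcl2: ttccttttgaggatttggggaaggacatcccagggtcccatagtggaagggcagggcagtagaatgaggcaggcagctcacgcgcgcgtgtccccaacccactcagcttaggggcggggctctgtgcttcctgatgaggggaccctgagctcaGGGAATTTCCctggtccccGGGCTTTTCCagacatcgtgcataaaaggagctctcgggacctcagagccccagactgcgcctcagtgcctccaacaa
That motif was found in 3 of 9 matched CXC chemokine promoters (33.3%), in 1.4% of all promoters and in 1.41% of those of genes tested.

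Cxcl2 had 85.05, 63.2 and 40.1 CPM with anti-Tim-4, against 476, 320.2 and 244 CPM with isotype, a log2 fold change of -2.48 ± 0.31 (adjusted p = 0.00549). Its isotype library 3, though the lowest of the isotype libraries, was above every anti-Tim-4 library by more than 2-fold. Cxcl3 (-2.22) and the platelet factor gene Pf4 (-0.81) fell as well, and Cxcl16, a membrane-bound chemokine and scavenger receptor, rose (0.47). Cxcl9, which attracts activated T cells through CXCR3, had 8.71, 13.02 and 11.7 CPM with anti-Tim-4, against 3.96, 5.52 and 4.16 CPM with isotype, a log2 fold change of 1.28 ± 0.19 (adjusted p = 0.00674). Cxcl10, a ligand of the same receptor, had 7.93, 10.8 and 10.9 CPM with anti-Tim-4, against 5.64, 5.55 and 6.34 CPM with isotype, a log2 fold change of 0.74 ± 0.15 (adjusted p = 0.0137). In Cxcl9 and Cxcl10 the groups did not overlap. Of 13 CC chemokines 3 fell and 0 rose. Ccl3, which attracts leukocytes, had 3.31, 5.23 and 3.59 CPM with anti-Tim-4, against 10.7, 11.4 and 7.72 CPM with isotype, a log2 fold change of -1.31 ± 0.21 (adjusted p = 0.00851). Ccl2 (-0.50) and Ccl22, a ligand of CCR4 made by dendritic cells (-2.70, or -1.23 without isotype library 3), fell as well. Calls lost on leaving out 1 library were those of Cxcl16 and Cxcl10 (anti-Tim-4 2 or 3, or isotype 1), Ccl22 (anti-Tim-4 1, 2 or 3), Ccl2 (anti-Tim-4 1, 2 or 3, or isotype 1) and Pf4 (anti-Tim-4 1 or 3, or isotype 1 or 3), with adjusted p-values up to 0.139. With all 18 libraries, the fit ended the call of Pf4, Cxcl9, Cxcl10, Ccl3 and Ccl2 (adjusted p up to 0.625), and robust estimation that of Pf4, Ccl2 and Ccl22 (adjusted p up to 0.107).

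Of 14 tested inflammatory cytokines and mediators, 6 fell and 1 rose, with a median of -0.55. Osm, oncostatin M, had 50.2, 31.4 and 30.4 CPM with anti-Tim-4, against 131, 124 and 109 CPM with isotype, a log2 fold change of -1.72 ± 0.18 (adjusted p = 0.00491). Il6 had 6.74, 4.56 and 2.46 CPM with anti-Tim-4, against 24.6, 14.9 and 10.98 CPM with isotype, a log2 fold change of -1.89 ± 0.39 (adjusted p = 0.0158). Neither gene overlapped between groups, and every anti-Tim-4 value of Osm was more than 2-fold below the lowest isotype value. Il27 (-0.65) and Il12b (-1.69) fell, although Il12b was near the lower limit of detection, with 0.186, 0.519 and 0.528 CPM with anti-Tim-4 and 0.916, 0.937 and 2.15 CPM with isotype. Tnfsf9, the ligand of 4-1BB, rose (0.64), and Tnf had a log2 fold change of -0.44 and an adjusted p of 0.195. Of 16 genes of the interleukin-1 family and the inflammasome 6 fell and 0 rose, led by Il1b with 9.09, 7.97 and 6.47 CPM with anti-Tim-4, against 23.6, 24.7 and 107 CPM with isotype, a log2 fold change of -2.73 ± 0.60 (adjusted p = 0.0196). Isotype library 3 was far above the other isotype libraries, and without it Il1b had a log2 fold change of -1.64 (adjusted p = 0.00449). The decoy receptor Il1r2 had -2.65, or -1.25 without that library, and Il1a had -1.16. Without isotype library 3, 3 members of the list fell and 1 rose, where 7.19% of all genes fell and 6.59% rose. Of 15 NF-kB regulators 4 fell and 2 rose, with Nfkbiz at -1.72 and the inhibitor Nfkbia at -0.34 among those that fell. Leaving out 1 library ended the call of Il6 and Il1a (anti-Tim-4 2), Il1r2 (anti-Tim-4 1, 2 or 3), Il12b (each but isotype 2), Il1b (anti-Tim-4 2 or 3), Il27 (anti-Tim-4 2 or 3, or isotype 1) and Tnfsf9 (each but anti-Tim-4 1), with adjusted p-values up to 0.132. The fit of all 18 libraries ended the call of Osm, Il27, Il12b, Tnfsf9 and Nfkbia (adjusted p up to 0.511), and robust estimation that of Il1b and Il1r2 (adjusted p up to 0.106).

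Of 19 tested genes of the prostaglandin and leukotriene pathway 7 fell and 4 rose, with a median of -0.19. Ptgs2 had 3.02, 4.38 and 2.39 CPM with anti-Tim-4, against 19.1, 12.9 and 13.4 CPM with isotype, a log2 fold change of -2.23 ± 0.24 (adjusted p = 0.00491). Ptgis, prostacyclin synthase, had 258, 173 and 121 CPM with anti-Tim-4, against 567, 447 and 571 CPM with isotype, a log2 fold change of -1.53 ± 0.25 (adjusted p = 0.00810). Alox5, the lipoxygenase that starts leukotriene synthesis, had 307, 271 and 190 CPM with anti-Tim-4, against 536, 468 and 555 CPM with isotype, a log2 fold change of -1.03 ± 0.16 (adjusted p = 0.00750). The groups did not overlap in any of the 3. Ptges (-0.55), Ptgs1 (-0.40) and Pla2g7 (-0.44) fell too, as did Alox15, given above. Hpgds, which makes prostaglandin D2, rose to 3.69, 3.56 and 4.33 CPM with anti-Tim-4, against 1.43, 2.33 and 1.19 CPM with isotype, a log2 fold change of 1.21 ± 0.26 (adjusted p = 0.0189), and the prostaglandin E2 receptor gene Ptger2 rose by 1.001. When 1 library was left out, the call was lost for Pla2g7 and Hpgds (anti-Tim-4 2 or 3, or isotype 1), Ptger2 (anti-Tim-4 2 or 3) and Ptges (anti-Tim-4 2 or 3, or isotype 1 or 3), with adjusted p-values up to 0.0989. A fit of all 18 libraries ended the call of Ptgis, Ptges, Pla2g7 and Hpgds (adjusted p up to 0.158).

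Of 24 tested targets of interferon-gamma 10 rose and 2 fell, with a median log2 fold change of 0.19, while of 28 type I interferon-stimulated genes 3 rose and 8 fell, with a median of -0.18. The 2 lists differ in their members, and the difference between them was not tested. The promoters of 3 called genes that carry the interferon response motif GAAA, any 2 bases, GAAA (in capitals, on either strand, no overlap with another motif searched) are shown, Socs1 and Irgm1 with 2 overlapping matches each and Cxcl10 with 1. Their windows are chr16:10785537-10785786, chr11:48871421-48871670 and chr5:92348890-92349139, all on the minus strand (RefSeq, GRCm38.p6, 5′ to 3′).
Socs1: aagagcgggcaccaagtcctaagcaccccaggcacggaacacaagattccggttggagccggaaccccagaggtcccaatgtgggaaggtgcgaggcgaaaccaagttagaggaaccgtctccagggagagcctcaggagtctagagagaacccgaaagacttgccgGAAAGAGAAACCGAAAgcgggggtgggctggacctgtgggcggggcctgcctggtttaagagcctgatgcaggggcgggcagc
Irgm1: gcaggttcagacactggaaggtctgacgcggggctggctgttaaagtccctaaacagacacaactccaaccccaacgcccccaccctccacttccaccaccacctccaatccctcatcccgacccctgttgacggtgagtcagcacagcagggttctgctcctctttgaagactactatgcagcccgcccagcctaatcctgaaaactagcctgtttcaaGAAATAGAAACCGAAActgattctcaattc
Cxcl10: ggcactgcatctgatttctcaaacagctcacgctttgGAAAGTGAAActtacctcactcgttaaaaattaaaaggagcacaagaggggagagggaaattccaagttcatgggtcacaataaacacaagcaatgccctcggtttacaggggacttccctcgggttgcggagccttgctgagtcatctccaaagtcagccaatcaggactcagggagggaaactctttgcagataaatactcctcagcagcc
The motif was found in 11 of 15 matched promoters of interferon-gamma targets (73.3%), in 3.04% of all promoters and in 2.89% of those of genes tested. No share was counted for the type I list, so these shares say nothing of a difference between the lists.

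Socs1, which inhibits cytokine receptor signaling, had 19.2, 25.6 and 34.3 CPM with anti-Tim-4, against 10.99, 13.9 and 16.1 CPM with isotype, a log2 fold change of 0.94 ± 0.21 (adjusted p = 0.0217). Irgm1, an immunity-related GTPase, had 239, 234 and 260.4 CPM with anti-Tim-4, against 168, 182 and 197 CPM with isotype, a log2 fold change of 0.41 ± 0.07 (adjusted p = 0.0104). Ciita, the transactivator of MHC class II genes, had 235, 219.8 and 247 CPM with anti-Tim-4, against 121, 162 and 144 CPM with isotype, a log2 fold change of 0.71 ± 0.10 (adjusted p = 0.00654). Each of the 3 was higher in all anti-Tim-4 libraries than in any isotype library. Irf1 (0.48), Iigp1 (0.61), Irgm2 (0.26) and Gbp6 (0.28) rose, while Wars (-0.60) and Tgtp1 (-0.34) fell, and Gbp6 and Tgtp1 have near-identical copies. Rsad2, the antiviral enzyme viperin, had 25.1, 24.8 and 18.1 CPM with anti-Tim-4, against 42.1, 39.9 and 47.9 CPM with isotype, a log2 fold change of -0.95 ± 0.13 (adjusted p = 0.00593). Of the other type I list members Isg20 (-1.32) and Usp18 (-0.63) fell and Stat2 (0.69) rose. Removal of 1 library ended the call of Socs1, Irf1 and Usp18 (anti-Tim-4 2 or 3, or isotype 1), Irgm2 (anti-Tim-4 1, 2 or 3, or isotype 1), Gbp6 (each but isotype 2), Isg20 (anti-Tim-4 2 or 3) and Tgtp1 (anti-Tim-4 2 or 3, or isotype 1 or 3), with adjusted p-values up to 0.123. Fitting all 18 libraries together ended the call of Socs1, Irgm1, Ciita, Irf1, Iigp1, Irgm2, Gbp6, Wars, Tgtp1, Rsad2, Usp18 and Stat2 (adjusted p up to 0.903). With all 18 libraries the fit called 1 of the 24 interferon-gamma targets, which rose, where 4.30% of all genes rose, and 1 of the 28 type I genes, which fell, where 3.67% of all genes fell. Libraries without a tumor were spread widely, from 10.3 to 133 CPM of Ciita.

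Of 13 tested MHC class II genes 3 rose and 2 fell, with a median of 0.06. Those that rose were Ciita, the protease Ctss (0.42) and the lysosomal reductase Ifi30 (0.28), whereas the peptide-presenting chains H2-Ab1 (0.06, adjusted p = 0.697), H2-Aa (0.06, adjusted p = 0.696) and H2-Eb1 (0.20, adjusted p = 0.201) were not called. Of 23 genes of MHC class I and peptide loading 7 fell and 0 rose. H2-K1 had 4289, 4113 and 3759 CPM with anti-Tim-4, against 5326, 4748 and 5883 CPM with isotype, a log2 fold change of -0.40 ± 0.09 (adjusted p = 0.0221), and its groups did not overlap. H2-D1 (-0.37) and H2-Q7 (-0.53) fell too, and class I genes share long identical stretches, so their counts are uncertain. B2m, the light chain, had -0.08 with an adjusted p of 0.416. Calls lost on leaving out 1 library were those of Ifi30, H2-K1 and H2-D1 (anti-Tim-4 2 or 3, or isotype 1 or 3), with adjusted p-values up to 0.115. With all 18 libraries, the fit ended the call of Ifi30, H2-K1, H2-D1 and H2-Q7 (adjusted p up to 0.316).

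Of the PD-1 ligand genes, Pdcd1lg2 rose, as given above, and Cd274 was not called. Cd274, the PD-L1 gene, had 396, 359 and 291 CPM with anti-Tim-4, against 400.1, 396 and 359 CPM with isotype, with a log2 fold change of -0.16 ± 0.11 and an adjusted p of 0.347. Among 16 tested checkpoint and costimulatory ligands 3 rose and 1 fell, the others being Tnfsf9, Cd40 (0.53) and Cd80, which fell to 10.7, 10.8 and 12.1 CPM with anti-Tim-4, against 17.2, 13.8 and 17.1 CPM with isotype, a log2 fold change of -0.53 ± 0.11 (adjusted p = 0.0161). Cd86 had -0.08 with an adjusted p of 0.623. Of 15 suppressive cytokine and adenosine genes 2 rose and 4 fell. Nt5e, the ecto-enzyme CD73 that makes adenosine, had 199.6, 179.5 and 97.5 CPM with anti-Tim-4, against 316, 296 and 335 CPM with isotype, a log2 fold change of -1.001 ± 0.23 (adjusted p = 0.0210), with no overlap. Lgals1, galectin-1, had 158, 198 and 205 CPM with anti-Tim-4, against 54.00, 109.7 and 82.6 CPM with isotype, a log2 fold change of 1.18 ± 0.22 (adjusted p = 0.0131). The adenosine receptor gene Adora2a fell (-1.05). Tgfb1 had 0.16 with an adjusted p of 0.0935. Arg1, arginase-1, had 8981, 9056 and 8188 CPM with anti-Tim-4, against 7884, 8490 and 8276 CPM with isotype, with a log2 fold change of 0.08 ± 0.07 and an adjusted p of 0.454, while without a tumor it had 205, 206 and 173 CPM. Of 21 genes of alternative activation 5 rose and 5 fell, with Pdcd1lg2 and Mrc1 among those that rose. Leaving out 1 library ended the call of Cd80 and Nt5e (anti-Tim-4 2, or isotype 1), Lgals1 (anti-Tim-4 2) and Adora2a (anti-Tim-4 2 or 3, or isotype 1), with adjusted p-values up to 0.0655. The fit of all 18 libraries ended the call of Nt5e and Adora2a (adjusted p up to 0.156), and robust estimation that of Nt5e (adjusted p up to 0.0599).

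Receptors for dying cells split. Of 21 tested phosphatidylserine receptors and bridging proteins, of 25 listed, 4 rose and 6 fell, with a median of 0.01. Stab1, stabilin-1, had 643, 929 and 1034 CPM with anti-Tim-4, against 233, 504 and 192 CPM with isotype, a log2 fold change of 1.48 ± 0.35 (adjusted p = 0.0239). Trem2, a lipid-sensing receptor, had 122, 144 and 155 CPM with anti-Tim-4, against 50.04, 83.3 and 50.4 CPM with isotype, a log2 fold change of 1.18 ± 0.20 (adjusted p = 0.00876). Anxa5, which binds phosphatidylserine, had 131, 159.9 and 184 CPM with anti-Tim-4, against 44.1, 77.7 and 52.5 CPM with isotype, a log2 fold change of 1.43 ± 0.20 (adjusted p = 0.00654). In these 3 genes isotype library 2 was the highest isotype library and still lay below every anti-Tim-4 library. Itgb5, a chain of the integrin that binds MFGE8, rose by 0.94, whereas Mfge8 itself had 33.7, 22.7 and 14.9 CPM with anti-Tim-4, against 45.5, 40.4 and 55.2 CPM with isotype, a log2 fold change of -0.997 ± 0.25 (adjusted p = 0.0306). Timd4, the bridging protein gene Pros1 (-0.53), Anxa1 (-0.28), Cd300ld (-0.40) and Ager (-1.40) were the other members that fell. The receptor tyrosine kinases Mertk (193, 197 and 206 CPM with anti-Tim-4, against 175, 182 and 152 CPM with isotype, adjusted p = 0.0772) and Axl (223, 179.6 and 208 CPM with anti-Tim-4, against 186, 189.9 and 197 CPM with isotype, adjusted p = 0.524) were not called, nor was Havcr2, the Tim-3 gene, at 0.76 (adjusted p = 0.0993). When 1 library was left out, the call was lost for Stab1, Pros1 and Anxa1 (anti-Tim-4 2 or 3, or isotype 1), Itgb5 and Mfge8 (anti-Tim-4 2 or 3, or isotype 1 or 3) and Ager (anti-Tim-4 1 or 3, or isotype 1), with adjusted p-values up to 0.108. A fit of all 18 libraries ended the call of Timd4, Itgb5, Mfge8 and Anxa1 (adjusted p up to 0.626), and robust estimation that of Stab1, Itgb5 and Mfge8 (adjusted p up to 0.0857).

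Of 14 scavenger receptors 5 rose and 5 fell. Besides Mrc1, Stab1 and Cxcl16, the fatty acid and thrombospondin receptor gene Cd36 rose by 1.25 and Scarf1 by 0.63, while Marco, Colec12 (-0.72), Scarb2 (-0.60), Cd68 (-0.41) and Scarb1 (-0.18) fell. Of 23 genes of the engulfment machinery 4 rose and 3 fell, among them Rac2, a GTPase of phagocytes (-0.49), and Cybb, the NADPH oxidase subunit (-0.45), which fell. Of 15 Fc receptor and antibody-sensing genes 3 rose and 2 fell. Fcgr1, the high-affinity IgG receptor gene, had 203, 219 and 233 CPM with anti-Tim-4, against 126, 155 and 137 CPM with isotype, a log2 fold change of 0.64 ± 0.09 (adjusted p = 0.00593). Fcgr2b, the inhibitory IgG receptor gene, had 849, 935 and 948 CPM with anti-Tim-4, against 538, 648 and 539.9 CPM with isotype, a log2 fold change of 0.65 ± 0.09 (adjusted p = 0.00591). Fcgrt, the neonatal Fc receptor that recycles IgG, had 242, 248 and 263 CPM with anti-Tim-4, against 146, 176 and 154 CPM with isotype, a log2 fold change of 0.65 ± 0.08 (adjusted p = 0.00491). None of the 3 overlapped between groups, and Fcgr3, an activating receptor gene with close homologs whose reads can be split, had -0.22 (adjusted p = 0.0303). Removal of 1 library ended the call of Cd36 and Fcgr3 (anti-Tim-4 2 or 3, or isotype 1 or 3), Cd68 and Cybb (anti-Tim-4 2, or isotype 1), Colec12 (anti-Tim-4 1, 2 or 3), Scarb1 (each but isotype 2) and Rac2 (anti-Tim-4 2 or 3), with adjusted p-values up to 0.130. Fitting all 18 libraries together ended the call of Scarf1, Colec12, Scarb1, Fcgr1 and Fcgr3 (adjusted p up to 0.277), and a fit with no filter on low counts that of Scarb1 and Fcgr3 (adjusted p up to 0.0784), and robust estimation that of Cd36 (adjusted p up to 0.0894).

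Of 20 complement genes 9 fell and 2 rose, with a median of -0.40. Properdin, Cfp (-0.65), C4b (-0.87) and C2 (-0.61) fell, and the anaphylatoxin receptor C3ar1 had 454, 457 and 472 CPM with anti-Tim-4, against 267, 355 and 255 CPM with isotype, a log2 fold change of 0.64 ± 0.12 (adjusted p = 0.0112). Without isotype library 3, 4 complement genes fell and 1 rose, where 7.19% of all genes fell and 6.59% rose. Of 37 lysosomal genes 9 fell and 3 rose, with Ctsd, the protease cathepsin D (-0.59), and Glb1, beta-galactosidase (-0.85), among those that fell and Ctsc, cathepsin C (0.68), among those that rose. Of 16 Toll-like receptors and adaptors 5 rose, including Tlr1 (0.75), Tlr4 (0.36) and the adaptor gene Myd88 (0.44), and 1 fell. The one that fell was Cd14, the lipopolysaccharide co-receptor, with 323, 275 and 278 CPM with anti-Tim-4, against 507, 453 and 563 CPM with isotype, a log2 fold change of -0.81 ± 0.10 (adjusted p = 0.00491). Calls lost on leaving out 1 library were those of Cfp and Glb1 (anti-Tim-4 2), Tlr4 (each but isotype 2), C2 (each but anti-Tim-4 1) and C4b (anti-Tim-4 2 or 3, or isotype 1 or 3), with adjusted p-values up to 0.141. With all 18 libraries, the fit ended the call of C4b, C2, Glb1, Tlr4 and Myd88 (adjusted p up to 0.520), and robust estimation that of C4b and C2 (adjusted p up to 0.0569).

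Lipid genes had members with large changes in both directions. Of 25 genes of lipid efflux and storage 9 rose and 6 fell, with a median of 0.09. Apoe, the lipoprotein that carries cholesterol out of macrophages, had 2180, 2603 and 2831 CPM with anti-Tim-4, against 919, 1267 and 976 CPM with isotype, a log2 fold change of 1.26 ± 0.14 (adjusted p = 0.00491). Pltp, phospholipid transfer protein, had 317, 333 and 405 CPM with anti-Tim-4, against 109, 167 and 109 CPM with isotype, a log2 fold change of 1.45 ± 0.17 (adjusted p = 0.00491). Without a tumor Apoe had 15050, 20590 and 33060 CPM and Pltp 1107, 1562 and 1945 CPM, far above both tumor groups. Gpnmb, a marker of lipid-laden macrophages, had 51.4, 72.5 and 55.5 CPM with anti-Tim-4, against 122, 119.8 and 109.7 CPM with isotype, a log2 fold change of -0.98 ± 0.12 (adjusted p = 0.00501). Spp1, osteopontin, had 492, 362 and 242 CPM with anti-Tim-4, against 643, 800.1 and 650 CPM with isotype, a log2 fold change of -0.94 ± 0.22 (adjusted p = 0.0247). Without a tumor Gpnmb had 6.19, 3.07 and 3.09 CPM and Spp1 3.40, 1.20 and 1.32 CPM, far below both tumor groups. Soat1, which esterifies cholesterol (0.44), and Lpl, lipoprotein lipase (0.54), rose, and the fatty acid binding protein genes Fabp4 (-0.95) and Fabp5 (-0.40) fell. Of 16 genes of fatty acid synthesis and desaturation 6 fell and 2 rose, with malic enzyme Me1 (-1.12), Acaca (-0.71) and Acly (-0.70) among those that fell and the desaturase Fads1 (1.04) among those that rose. Leaving out 1 library ended the call of Fads1 (anti-Tim-4 2), Fabp4 (anti-Tim-4 2 or 3, or isotype 1), Fabp5 (anti-Tim-4 2 or 3, or isotype 1 or 3), Spp1 (anti-Tim-4 2, or isotype 1 or 2), Me1 (anti-Tim-4 2, or isotype 1 or 3) and Lpl (isotype 1), with adjusted p-values up to 0.130. The fit of all 18 libraries ended the call of Gpnmb, Spp1, Lpl, Fabp4, Fabp5 and Me1 (adjusted p up to 0.266), and robust estimation that of Spp1, Fabp4 and Me1 (adjusted p up to 0.0780).

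Of 32 genes of glycolysis and hypoxia 10 rose and 6 fell, with a median of 0.16. Pfkfb3, which raises glycolytic flux, had 91.6, 109.8 and 113 CPM with anti-Tim-4, against 53.01, 65.7 and 58.1 CPM with isotype, a log2 fold change of 0.82 ± 0.10 (adjusted p = 0.00505). Ndrg1 (0.80), Bnip3 (0.67) and the hypoxia factor gene Hif1a (0.38) rose. Vegfa, the angiogenic factor, had 44.2, 47.5 and 43.3 CPM with anti-Tim-4, against 62.7, 67.1 and 50.4 CPM with isotype, a log2 fold change of -0.43 ± 0.10 (adjusted p = 0.0266), and the oxygen sensor gene Egln3 fell (-0.65). The groups did not overlap in Pfkfb3 or Vegfa. The hypoxia motif ACGTG was found in 15 of 29 matched promoters of this list (51.7%), in 16.6% of all promoters and in 21.8% of those of genes tested. When 1 library was left out, the call was lost for Vegfa (each but isotype 3), Ndrg1 (anti-Tim-4 2 or 3) and Bnip3 (anti-Tim-4 2 or 3, or isotype 1), with adjusted p-values up to 0.0942. A fit of all 18 libraries ended the call of Ndrg1, Vegfa and Egln3 (adjusted p up to 0.261).

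Genes of DNA replication and mitosis rose modestly. Of 40 tested, 20 rose and 0 fell, with a median log2 fold change of 0.31. Mcm6, a subunit of the replicative helicase, had 102, 116 and 120.5 CPM with anti-Tim-4, against 81.1, 88.2 and 72.3 CPM with isotype, a log2 fold change of 0.48 ± 0.09 (adjusted p = 0.0129). Ccne2, a cyclin of the entry into S phase, had 8.34, 8.68 and 11.3 CPM with anti-Tim-4, against 4.98, 6.14 and 3.01 CPM with isotype, a log2 fold change of 0.99 ± 0.25 (adjusted p = 0.0286). Both were higher in every anti-Tim-4 library than in any isotype library. Ccne1 (0.72), Uhrf1 (0.66), the mitotic kinase gene Aurkb (0.53) and the sliding clamp gene Pcna (0.38) rose, while Mki67 had 224, 183 and 213 CPM with anti-Tim-4, against 189, 178 and 140.3 CPM with isotype, with an adjusted p of 0.145. Of the 40, a fit with all 18 libraries called 5, where 4.30% of all genes rose, and leaving out 1 library left 6 to 20. Ribosomal protein genes moved slightly the other way, with 14 of 42 lower, 0 higher and a median of -0.20. All 42 had a negative log2 fold change under the scaling used, and Rps19 had 168, 161 and 153 CPM with anti-Tim-4, against 207, 195 and 220.1 CPM with isotype, a log2 fold change of -0.38 ± 0.06 (adjusted p = 0.00921). The count of ribosomal genes lower was 4 of 42 without isotype library 3, where 7.19% of all genes fell, 1 of 42 in the fit of all 18 libraries, where 3.67% fell, and 1 to 23 when any 1 library was left out. Removal of 1 library ended the call of Mcm6 and Ccne1 (anti-Tim-4 2) and Ccne2 (anti-Tim-4 2 or 3, or isotype 1), with adjusted p-values up to 0.103. Fitting all 18 libraries together ended the call of Ccne1, Uhrf1, Aurkb and Rps19 (adjusted p up to 0.0988).

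Matrix proteins and proteases had 6 members that rose and 10 that fell of 24 tested, with a median of -0.15. Tgfbi, a matrix protein induced by TGF-beta, had 457, 497 and 602 CPM with anti-Tim-4, against 196, 306 and 294 CPM with isotype, a log2 fold change of 0.96 ± 0.17 (adjusted p = 0.0104). Thbs1 had 2708, 2322 and 1638 CPM with anti-Tim-4, against 4975, 4211 and 4855 CPM with isotype, a log2 fold change of -1.08 ± 0.17 (adjusted p = 0.00758). Neither overlapped between groups. Collagen genes that fell, such as Col1a1 (-2.24) and Col3a1 (-2.04), are also members of the mesothelial and fibroblast list, whose sum was highest in isotype library 3. Without that library Col1a1 had -1.33 (adjusted p = 0.0625) and Col3a1 -1.16 (adjusted p = 0.0675). Without it 4 members of the matrix list rose and 6 fell, where 6.59% of all genes rose and 7.19% fell. Of 21 NRF2 antioxidant targets 4 rose and 2 fell, of 15 iron genes 2 rose and 3 fell, and of 17 transporters of glucose, lactate and amino acids 4 rose and 1 fell. Of 16 genes of arginase and polyamine metabolism 2 rose and 1 fell, near the share over all genes (9.74% rose, 10.5% fell). Calls were few among 22 genes of the unfolded protein response (0 rose, 2 fell) and 23 of cholesterol synthesis (1 rose, 1 fell). The same held for 35 nuclear genes of the respiratory chain (0 rose, 1 fell), 13 of the mitochondrial genome (0 rose, 1 fell) and 26 of the proteasome (1 rose, 0 fell). Calls lost on leaving out 1 library were those of Col1a1 and Col3a1 (anti-Tim-4 1, 2 or 3, or isotype 3), with adjusted p-values up to 0.132. Robust estimation ended the call of Col1a1 and Col3a1 (adjusted p up to 0.0854).

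**Figure D4:**
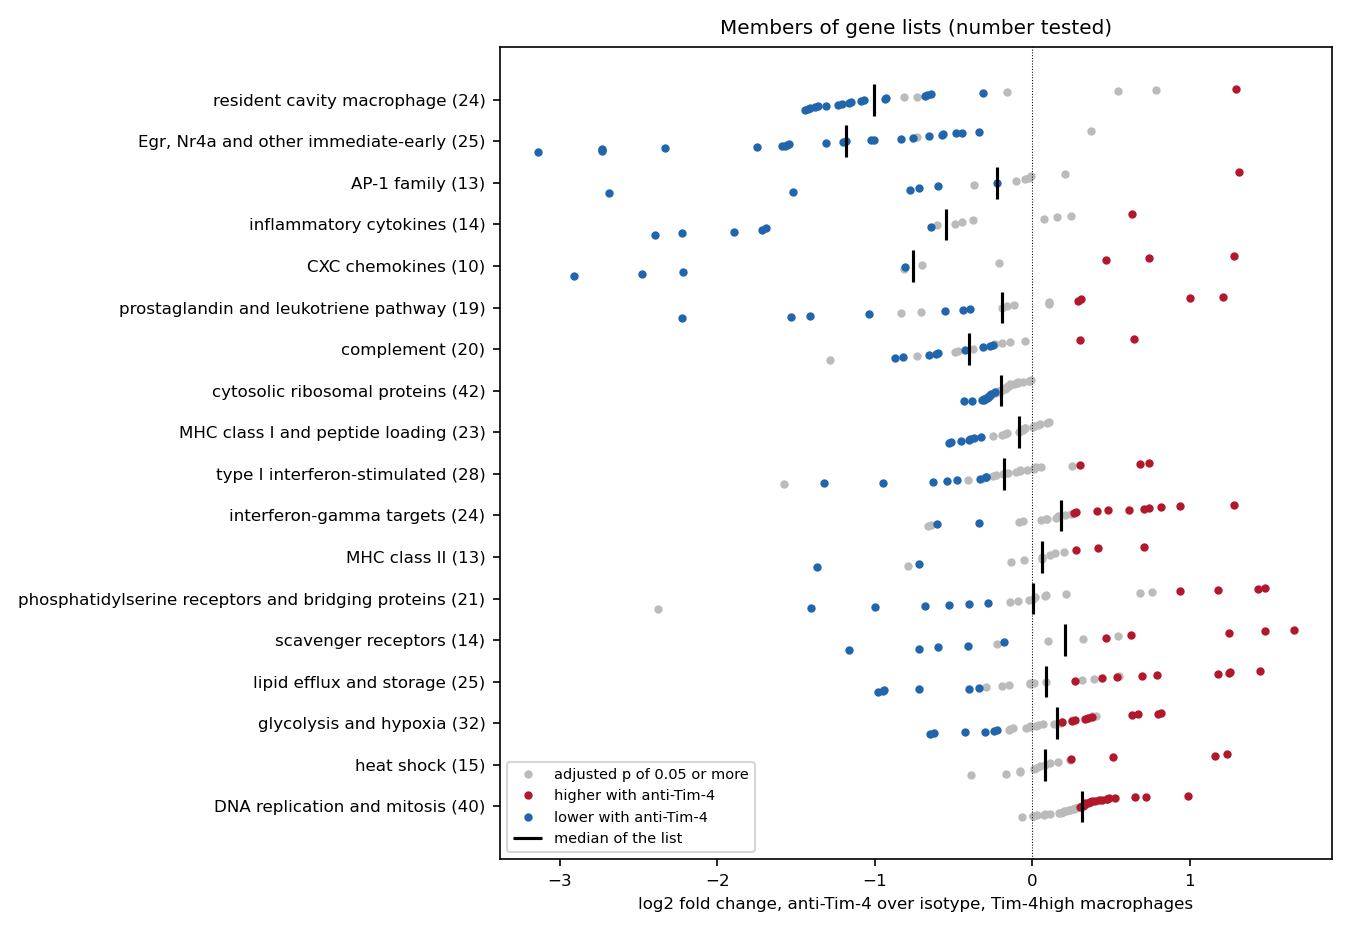
Anti-Tim-4 to isotype log2 fold change in Tim-4high macrophages (horizontal axis) for the tested members of gene lists (rows), with 1 point per gene, called genes in red (higher) or blue (lower), and a bar at each list's median. Immediate-early and resident macrophage genes lie mostly left of 0, with medians of -1.18 and -1.002, and replication genes right of it, with a median of 0.31.

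In Tim-4low macrophages of the same treatment groups, 67 of 15724 genes rose (0.426%) and 73 fell (0.464%) with anti-Tim-4, 0.890% in all. This count is from a fit of 12 libraries of both sorts. The 20.3% called in Tim-4high cells came from a fit of 6 libraries with its own genes and dispersion, so the shares are not like measures. The difference between the populations, the antibody effect in Tim-4high minus that in Tim-4low cells in 1 fit of 12 libraries, was called for 976 genes (6.21%), 486 higher (3.09%) and 490 lower (3.12%) in Tim-4high. Libraries of the same number in both sorts varied together, and with the number as a block the difference was called for 3233 genes. The edgeR fit called 0 genes without anti-Tim-4 Tim-4high library 2, anti-Tim-4 Tim-4high library 3 or isotype Tim-4low library 2, with 3343, 3011 and 2979 genes at an unadjusted p under 0.05, so each difference called below in the unblocked edgeR fit lost its call when any of these libraries was left out. The count in Tim-4low cells was 3 in a fit of the 6 Tim-4low libraries alone and 32 to 207 when 1 library was left out.

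Of the 15 largest increases 14 had a called difference between populations, and of the 15 largest decreases 0 had one. With the number as a block these counts were 15 and 10. Both sets were chosen on the same Tim-4high libraries that enter that difference. Pdcd1lg2 had 14.9, 14.8 and 19.99 CPM with anti-Tim-4 and 17.8, 19.2 and 11.1 CPM with isotype in Tim-4low cells, a log2 fold change of 0.04 ± 0.24 there, and differed between populations by 2.06 ± 0.35 (adjusted p = 0.0174). Aif1 differed by 2.03 ± 0.29 (adjusted p = 0.0174), Flt1 by 1.97 ± 0.25 (adjusted p = 0.0174), Clec4a1 by 1.77 ± 0.23 (adjusted p = 0.0174) and Apoe by 1.75 ± 0.28 (adjusted p = 0.0174). In Tim-4low cells the antibody groups overlapped for Pdcd1lg2, Flt1, Clec4a1 and Apoe, while every anti-Tim-4 value of Aif1 was below every isotype value there. Mrc1 (1.90 ± 0.50, adjusted p = 0.0456), Stab1 (2.23 ± 0.47, adjusted p = 0.0260), Trem2 (1.58 ± 0.32, adjusted p = 0.0235) and Cxcl9 (1.15 ± 0.29, adjusted p = 0.0419) also had called differences.

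Among negative differences (Tim-4high minus Tim-4low) the smallest p-values belonged to Gfod1, Ksr1, Hvcn1, Fam53b and Fam117a, and among positive ones Tmsb10 and Bcl2l11 stood beside Flt1, Clec4a1 and Aif1. Gfod1 (ENSMUSG00000051335, chromosome 13, 43195245 to 43304172, minus strand) had 13.8, 12.4 and 10.4 CPM with anti-Tim-4 and 41.8, 34.8 and 31.7 CPM with isotype in Tim-4high cells, against 23.7, 22.7 and 10.7 CPM with anti-Tim-4 and 10.1, 8.90 and 12.3 CPM with isotype in Tim-4low cells, a difference of -2.44 ± 0.36 (adjusted p = 0.0174). The voltage-gated proton channel gene Hvcn1 differed by -0.63 ± 0.08, the MAP kinase scaffold gene Ksr1 by -1.01 ± 0.13, Fam53b by -0.52 ± 0.07 and Fam117a by -0.80 ± 0.11. In Tim-4low cells Ksr1 (0.51 ± 0.09, adjusted p = 0.0259), Hvcn1 (0.37 ± 0.06, adjusted p = 0.0159) and Fam53b (0.45 ± 0.05, adjusted p = 0.00409) rose, while in Tim-4high cells Fam53b had a log2 fold change of -0.07 ± 0.05 (adjusted p = 0.328). With the 6 Tim-4low libraries alone, adjusted p-values of these 3 genes were 0.0755 to 0.158. A block joining anti-Tim-4 and isotype Tim-4low libraries of the same number gave 0.356 to 0.366. Such libraries did not vary together (r of -0.332 to 0.033), so that block cannot decide whether the calls hold. Tmsb10, an actin-binding thymosin gene, differed by 1.70 ± 0.22 and Bcl2l11, the proapoptotic BIM gene, by 1.18 ± 0.13 (adjusted p = 0.0174 and 0.0174). F5 differed by -2.26 ± 0.53 (adjusted p = 0.0335), and Egr3 by -1.56 ± 0.37 (adjusted p = 0.0346).

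For the resident genes Gata6 (-2.08 ± 0.65, adjusted p = 0.0759) and Alox15 (-2.39 ± 0.71, adjusted p = 0.0645) the difference missed the threshold without a block and passed it with the number as a block, where the adjusted p-values were 0.000549 and 0.000412, and DESeq2 called both. Of the immediate-early genes, Nr4a1 and Fosb were called in Tim-4low cells in the fit of 12 libraries. Nr4a1 had 37.3, 29.8 and 16.6 CPM with anti-Tim-4, against 147, 102 and 104 CPM with isotype in Tim-4low cells, a log2 fold change of -2.08 ± 0.33 (adjusted p = 0.0153). Fosb had 25.9, 16.5 and 14.8 CPM with anti-Tim-4, against 90.4, 54.9 and 44.1 CPM with isotype in Tim-4low cells, -1.73 ± 0.35 (adjusted p = 0.0464), while Egr1 had -1.18 ± 0.42 (adjusted p = 0.212). With the 6 Tim-4low libraries alone the adjusted p was 0.0675 for Nr4a1 and 0.113 for Fosb, so neither call held there. A block joining anti-Tim-4 and isotype Tim-4low libraries of the same number gave 0.182 and 0.0575, but such libraries did not vary together (r of -0.332 to 0.033). Differences between populations for Nr4a1, Fosb and Egr1 had adjusted p-values of 0.430, 0.257 and 0.134 without a block. With the block joining both sorts of a condition and number they were 0.00857, 0.00140 and 0.000113, so there the fall was larger in Tim-4high cells.

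**Figure D5:**
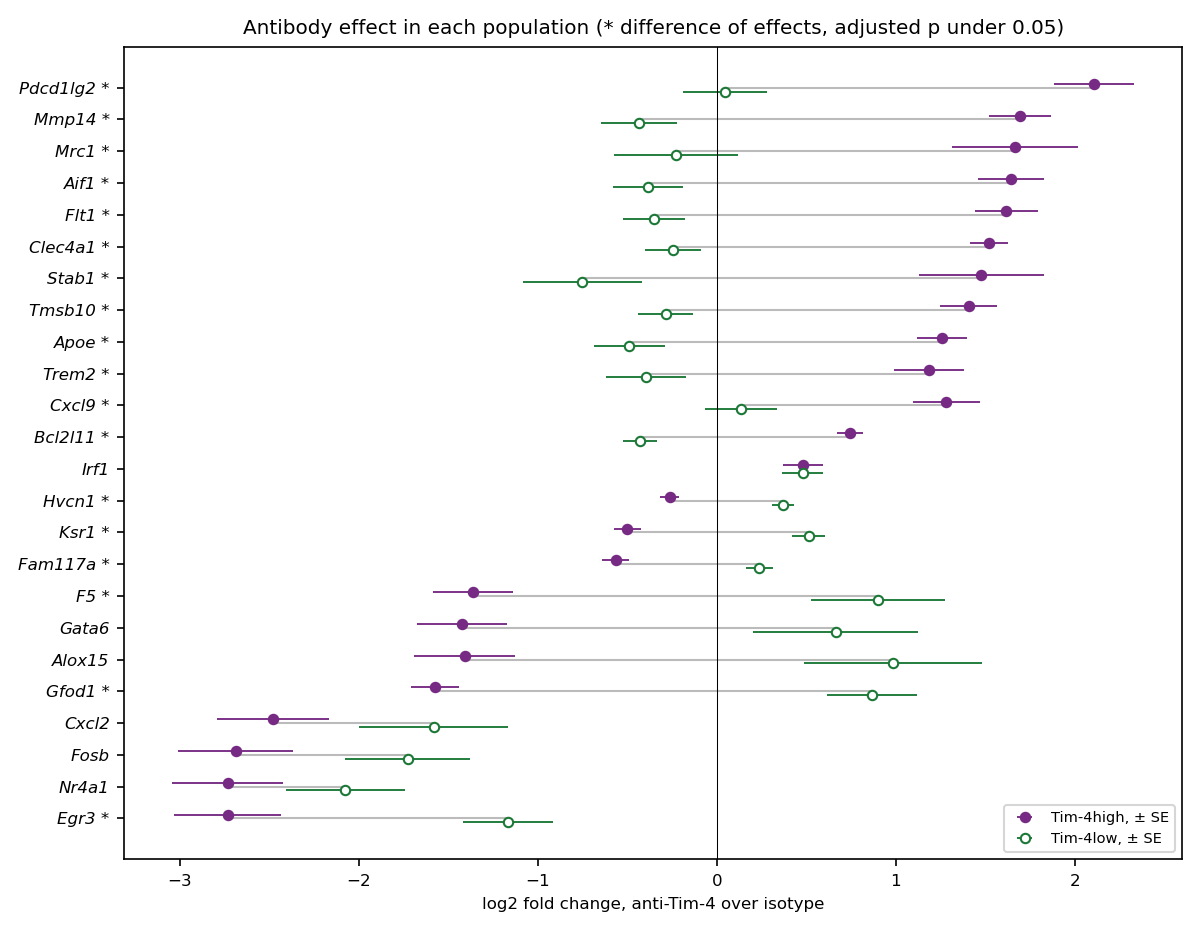
Log2 fold change of anti-Tim-4 over isotype (horizontal axis) with its standard error in Tim-4high (upper point) and Tim-4low (lower point) macrophages for named genes. Pdcd1lg2 lies at 2.11 in Tim-4high and 0.04 in Tim-4low cells, while Nr4a1 lies left of 0 in both.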

How the data were processed

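Bulk RNA of 18 libraries was compared, in 6 groups of 3, as the labels name them. The authors deposited a table of estimated counts per gene, which need not be whole, and a table of their own comparison of the same 6 Tim-4high libraries with p-values and a signed fold change (a score with no values between -1 and 1). STAR, DESeq2 and the build mm10 are named in the submitters' processing notes without versions. No label names the quantifier, the annotation release or any use of strand (not given in the sources used here), so overlapping and antisense genes could share reads.

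Estimated counts were rounded to whole numbers. Genes were kept with filterByExpr, a minimum count of 10 with its other settings at their defaults, and those not kept held at most 0.104% of the counts of a library. Libraries were scaled by TMM, and groups were compared with the quasi-likelihood test of edgeR 4.0.16 in R 4.3.3, with Benjamini-Hochberg adjustment over all genes tested. A gene was called at an adjusted p under 0.05, and "rose" and "fell" are used of called genes only. CPM use TMM library sizes. Those of Tim-4high cells were scaled over all Tim-4high libraries, the ones without a tumor included. Those of Tim-4low cells were scaled over the libraries of both sorts from tumor-bearing mice. Each ± is the standard error of a log2 fold change with 3 libraries per group, and the common dispersion was 0.0134. DESeq2 1.42.0, RLE factors, no filter, robust estimation, a fit of all 18 libraries, blocks of the library number and leaving out each library were the alternatives. Replicate libraries differed from each other by more than counting noise, so none was a copy of another.

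The members and the 54 gene lists were chosen with earlier results of these data known. Genes named were Timd4, the 15 called genes with the largest rise and the 15 with the largest fall (at least 10 CPM, groups not overlapping), up to 4 members of each list with the smallest p, 26 key genes of macrophages, and the 5 smallest p each way for the difference between populations. Of the genes this rule gives, not all are described, and other list members were added after their values were seen, to complete a group. Deviations of Tim-4high and Tim-4low libraries of the same condition and number from their group means were correlated across genes with r of 0.186 to 0.497 in all 6 pairs, so the number was taken to pair the sorts. Promoters from 250 bases before to 50 after the start are from RefSeq (GRCm38.p6).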

Additional observations from a re-analysis of the deposited data

Results flagged for a closer look

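The antibody effect differed between Tim-4high and Tim-4low macrophages in the test of the difference itself (edgeR quasi-likelihood test, 12 libraries, adjusted p under 0.05) for 18 of the genes described. Over all genes tested 6.21% had a called difference. The genes with the 5 smallest p each way were named by this same test, and others for their change in Tim-4high libraries or as key genes. The count of 18 therefore reflects that choice. Without anti-Tim-4 Tim-4high library 2 or 3, or isotype Tim-4low library 2, 0 genes were called. Values are the anti-Tim-4 to isotype log2 fold change of Tim-4high cells minus that of Tim-4low cells. The difference was positive for Stab1 (2.23), Pdcd1lg2 (2.06), Aif1 (2.03), Flt1 (1.97), Mrc1 (1.90), Clec4a1 (1.77), Apoe (1.75), Tmsb10 (1.70), Trem2 (1.58), Bcl2l11 (1.18) and Cxcl9 (1.15). It was negative for Gfod1 (-2.44), F5 (-2.26), Egr3 (-1.56), Ksr1 (-1.01), Fam117a (-0.80), Hvcn1 (-0.63) and Fam53b (-0.52).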

How the results depend on the processing

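In Tim-4high cells the count of called genes was 2990, against 2991 with RLE factors, 2684 with no filter on low counts, 2924 with robust estimation, 3198 by DESeq2, 1324 in the fit of all 18 libraries, 575 when a change past 2-fold was also asked for, and 1024 to 3039 when 1 library was left out. With the library number as a block it was 2423, but numbers did not pair the conditions, since deviations of same-numbered anti-Tim-4 and isotype Tim-4high libraries had r of -0.051 to 0.028. In Tim-4low cells the count was 140, against 576 by DESeq2, 54 in the fit of all 18 libraries and 3 in the 6 Tim-4low libraries alone. It was 32 to 207 when 1 library was left out. With the replicate block it was 0, with 1308 genes at an unadjusted p under 0.05 in edgeR. There too numbers did not pair the conditions, with r of -0.332 to 0.033 for same-numbered anti-Tim-4 and isotype Tim-4low libraries. The difference between populations was called for 976 genes, against 1858 by DESeq2, 487 in the fit of all 18 libraries, 3233 with the number as a replicate block, and 0 to 2318 when 1 library was left out. The cause of these shifts was not tested. Of 2688 values of named genes under alternatives in Tim-4high cells, 0 reversed, 442 were no longer called and 20 became called. In Tim-4low cells the log2 fold change of Cxcl9 reversed to -0.051 without anti-Tim-4 library 2 (up to 0.33 when another library was left out), and that of Pdcd1lg2 to -0.11 without anti-Tim-4 library 3 and to -0.16 without isotype library 3 (up to 0.19), and none of these was called.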
